A study of Mus musculus with 20 samples.

Results

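The comparison described here is between 2 genotypes of cells 0.5 h after an inflammatory stimulus, when the first wave of genes is switched on. It rests on 6 of the 20 libraries of the series, 3 of each genotype, chosen by the genotype, agent and time in their labels and paired by agent. A further pair from unstimulated cells (0 h) gives the starting level. The cells were primary mouse embryonic fibroblasts, connective tissue cells grown from C57BL/6 embryos, kept overnight in low serum. All of them, controls included, were labelled crel-/-, lacking the NF-kB subunit c-Rel. The control genotype carried no other labelled change. The knock-in carried in addition the allele named RelA-TA-KI at Rela, the gene of the NF-kB subunit RelA, with the meaning of TA and the residues it alters not given in the labels. Both genotypes received IL-1b or TNF at 10 ng/ml or LPS, bacterial lipopolysaccharide, at 100 ng/ml. The question was which genes of the first wave differ with the altered RelA in this c-Rel-deficient background, under each agent and in common. There was 1 library per genotype, agent and time, and the labels name no separate cultures, so each p-value reflects no more than how these libraries vary, and that variation may be technical.

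NF-kB dimers that contain RelA are held in the cytoplasm by inhibitor proteins of the IkB family. IL-1b, LPS and TNF each act through a receptor that leads to destruction of the inhibitors, after which the dimers enter the nucleus and switch on genes within minutes. Among their known targets are the inhibitors themselves, which form a negative feedback, and chemokines, cytokines and adhesion molecules. Another set of immediate early genes, such as Fos and Egr1, is driven in the same minutes mainly by MAP kinases through serum response factor and CREB.

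The 8 libraries held 9518725 to 12466519 counts each. The 21 fibroblast markers summed to 74618 to 89686 CPM, the counts of a gene relative to the scaled library total. Macrophage markers were also present, 16 of 16 detected, with a sum of 3784, 4259 and 5431 CPM in the control IL-1b, LPS and TNF libraries and of 3051, 3419 and 4933 CPM in the knock-in ones. Lyz2 alone held 1400, 1529 and 2068 CPM of the control sums and 968, 1030 and 1513 CPM of the knock-in ones. Under TNF the other markers went both ways. Adgre1 (298 against 361 CPM) and Csf1r (537 against 550) were higher in the knock-in, C1qa (303 against 270) and Cd68 (248 against 239) lower. Endothelial, epithelial, neural and skeletal muscle markers summed to at most 142 CPM each. The IL-1b and LPS libraries of both genotypes stood apart from the 0 h and TNF libraries: their mitochondrial transcripts summed to 12790 to 16384 CPM, against 7121 to 10088 CPM in the other 4. This sum was also higher in the knock-in than in the control library of each pair, at 13816 against 12790, 16384 against 14570 and 10088 against 7703 CPM under IL-1b, LPS and TNF and 9445 against 7121 CPM at 0 h. Of 7 mitochondrial transcripts tested, mt-Nd1, mt-Nd2, mt-Nd4 and mt-Cytb were called higher at 0.5 h and none lower, with a median of 0.23 on the log2 scale. Among all genes tested 2.81% were called higher and 2.94% lower. Cartilage and bone markers summed to 1108, 1254 and 1141 CPM in the control IL-1b, LPS and TNF libraries and to 826, 963 and 1207 CPM in the knock-in ones. Of 8 tested, Comp (-1.07) and Col9a1 (-1.41) were called lower and none higher. The part of either in the genotype calls was not tested. In bulk RNA, fewer cells of a type and less RNA per cell cannot be told apart. Rela stood at 130, 77.9 and 112 CPM in control cells and 93.0, 81.1 and 99.3 CPM in knock-in cells under IL-1b, LPS and TNF, a log2 difference of -0.20 (SE 0.10, adjusted p = 0.38). Rel differed by -0.27 (SE 0.11, adjusted p = 0.19). A gene-level count is blind to an altered residue or exon, so the genotype labels are not checked by either gene.

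At 0.5 h, Tnfaip3 and Nfkbie, which encode feedback inhibitors of NF-kB signalling, were lower in knock-in than in control cells. Tnf, Il1b, Cxcl1, Sele and Tlr2 were lower too, while Fosb, Egr1, Nr4a1 and Btg2 did not pass the test in either direction. Of these, Sele could not have passed the filter on low counts without control libraries. A smaller set, led by Rgs1, Hbegf and Trib1, was higher in the knock-in. In an edgeR fit over all 20 libraries Rgs1, Hbegf and Trib1 did not pass (adjusted p = 0.14, 0.60 and 0.76), nor did Il1b (0.12). That fit called 15 first-wave genes lower and 0 higher. Across 13560 genes tested with the quasi-likelihood F test of edgeR, with agent as a block and Benjamini-Hochberg adjustment, 398 were lower (2.94%) and 381 higher (2.81%) in the knock-in at 0.5 h at an adjusted p under 0.05. Of these, 86 were lower and 33 higher by at least 1 on the log2 scale. The lower calls numbered 254, 200 and 576 without the IL-1b, LPS and TNF pair in turn, and the higher calls 223, 140 and 530. With no block for the agent, 1 gene was lower and 1 higher.

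First-wave genes were taken as those with a log2 rise of 1 or more from 0 to 0.5 h and an adjusted p under 0.05 in the mean of 3 agents and both genotypes. They numbered 143 (1.05% of genes tested). Of them 25 (17.5%) were lower in the knock-in, 11 (7.69%) were higher and 107 did not pass, against 2.94% lower and 2.81% higher among all genes. The rise and the genotype difference share the residual spread of 1 fit. Choosing genes by the p-value of the rise can therefore itself raise both shares. The median difference was -0.08 on the log2 scale, beside 0.0039 for all genes, and 17 of the 25 were lower by at least 1. Over all genes, the response to the agents was called upward for 569 (4.2%) and downward for 316 (2.33%) in control cells and for 336 (2.48%) and 270 (1.99%) in knock-in cells. Without the IL-1b, LPS and TNF pair in turn these were 376, 304 and 1329 up and 76, 85 and 1320 down in control cells, and 213, 170 and 1095 up and 63, 52 and 1268 down in the knock-in. Among first-wave genes the median rise was 1.92 in control and 1.51 in knock-in cells. The 3 knock-in libraries all lay below the 3 control libraries for 8 of the 143 genes and all above for 3, while 6.16% and 6.37% of all genes did so. First-wave genes numbered 117, 129 and 239 without the IL-1b, LPS and TNF pair in turn. The number of lower ones was 34, 45 and 32 in the same order, and of higher ones 14, 5 and 18. Just inside the fold limit lay 3110039I08Rik, with a rise of 1.00, and Bhlhe40, with 1.01, and just outside lay Snhg20 and Epha2, both at 0.99. Several genes with a wide genotype gap, Nfkbia, Tnfaip3, Cxcl2 and Irf1 among them, had a mean rise over 1 that did not pass its test (adjusted p = 0.07, 0.076, 0.098 and 0.21) and so lie outside the 143. Counted by fold alone the wave held 245 genes, of which 28 were lower and 11 higher.

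**Figure D1:**
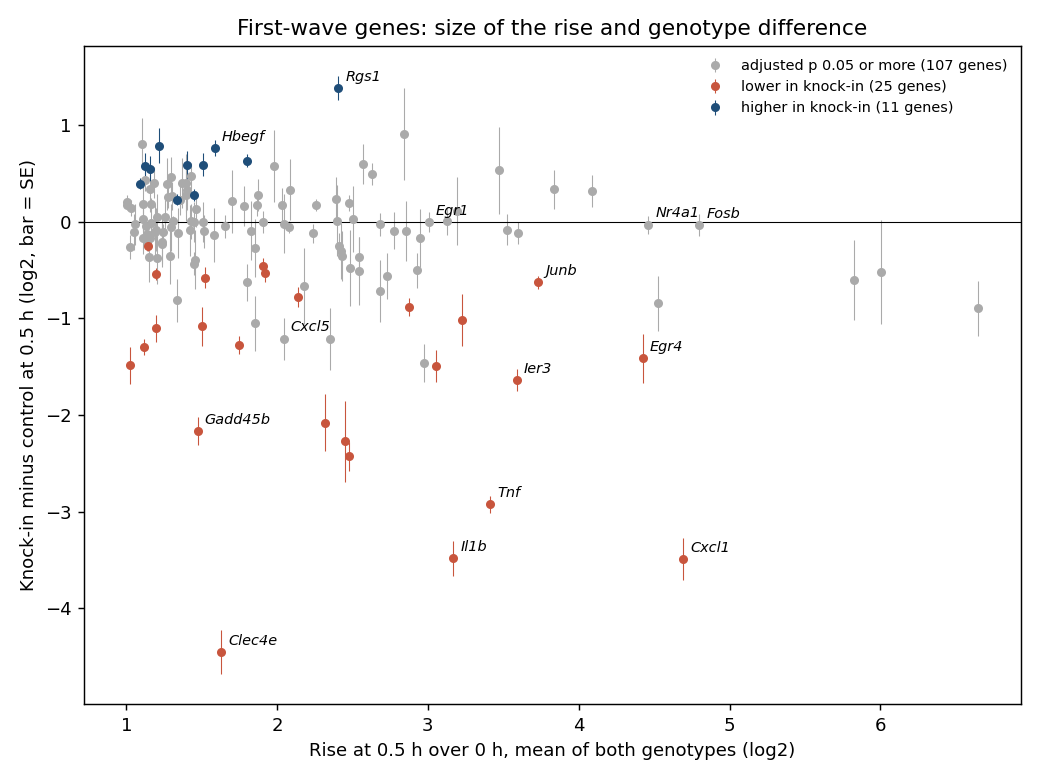
Genotype difference at 0.5 h (knock-in minus control, log2, bars are SE from the fit) against the rise over 0 h (log2, mean of both genotypes) for the 143 first-wave genes, 1 point per gene. The 25 lower genes reach down to Clec4e at -4.45, while Fosb, Nr4a1 and Egr1, with rises of 4.80, 4.46 and 3.0, lie near 0. Clec4e could not have passed the filter on low counts without control libraries.

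Of the 143 genes, 50 did not rise by 1 under TNF, and 48 of these rose under IL-1b and LPS. They include Malat1, Kcnq1ot1 and Mir22hg, named after their values were seen, and many unnamed gene models, in the same 4 libraries where the mitochondrial sum was high. In that group of 48, Penk and Mir155hg were lower (the latter with an adjusted p of 0.069 without the LPS pair) and 3 genes were higher in the knock-in. Among the 93 genes that rose under TNF, a restriction chosen after seeing the data, 23 were lower and 8 higher. The part of this difference between library sets in the rise of the 48 genes was not tested.

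The negative feedback genes had some of the widest gaps. Nfkbia (ENSMUSG00000021025.7, chr12:55489411-55492647, mm10) encodes IkB-alpha, an inhibitor that binds RelA dimers. It went from 31.0 CPM at 0 h to 877, 308 and 863 CPM under IL-1b, LPS and TNF in control cells, and from 24.4 to 51.8, 37.9 and 60.7 CPM in knock-in cells. Every stimulated knock-in library lay below every stimulated control library. The knock-in kept 3.24%, 4.87% and 4.36% of the control increase over 0 h. The fitted difference was -3.68 (SE 0.30, adjusted p = 0.062), which misses the threshold. It passed in 5 of 11 alternatives, among them the fit without the LPS pair (adjusted p = 1e-09) and DESeq2, with differences from -3.96 to -3.47 and adjusted p from 9.7e-29 to 0.29.

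Tnfaip3 (ENSMUSG00000019850.9, chr10:19000910-19015657) encodes A20, a ubiquitin-editing enzyme that shuts off signalling upstream of NF-kB. It went from 9.93 to 716, 233 and 689 CPM in control cells and from 7.01 to 10.3, 9.39 and 14.9 CPM in the knock-in, where at most 1.16% of the control increase was left. It was lower in the knock-in (-5.51, SE 0.35, adjusted p = 0.041), and the call was lost without the IL-1b pair (adjusted p = 0.066), without the TNF pair (0.22) and with no filter on low counts (0.073). Nfkbie, which encodes IkB-epsilon, was at 32.4, 16.9 and 31.7 CPM in control and 6.57, 4.95 and 6.77 CPM in knock-in cells, the latter no higher than the 6.92 CPM at 0 h. It was lower (-2.13, SE 0.13, adjusted p = 3e-06), and the groups did not overlap.

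The promoters of both Nfkbia and Tnfaip3 are shown with those of 4 other genes, as examples of genes with a wide genotype gap (Nfkbia, Tnfaip3, Cxcl1, Ier3) and of induced genes with none called (Fosb, Btg2). They were picked, and do not stand for their groups. Each runs 5′ to 3′ along its gene, from 250 bases before to 50 after the RefSeq start on GRCm38.p6. Capitals mark matches, on either strand, to the kB consensus, the CArG box of serum response factor, the AP-1 motif TGANTCA or the CRE motif TGACGTCA.
Nfkbia, chr12:55492598-55492897, minus strand: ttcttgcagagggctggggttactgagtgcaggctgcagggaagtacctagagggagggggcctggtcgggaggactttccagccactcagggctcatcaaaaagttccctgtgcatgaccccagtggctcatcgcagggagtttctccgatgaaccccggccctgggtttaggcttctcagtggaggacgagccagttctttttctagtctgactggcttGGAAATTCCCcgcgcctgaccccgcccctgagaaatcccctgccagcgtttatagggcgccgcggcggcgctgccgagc
Tnfaip3, chr10:19015361-19015660, minus strand: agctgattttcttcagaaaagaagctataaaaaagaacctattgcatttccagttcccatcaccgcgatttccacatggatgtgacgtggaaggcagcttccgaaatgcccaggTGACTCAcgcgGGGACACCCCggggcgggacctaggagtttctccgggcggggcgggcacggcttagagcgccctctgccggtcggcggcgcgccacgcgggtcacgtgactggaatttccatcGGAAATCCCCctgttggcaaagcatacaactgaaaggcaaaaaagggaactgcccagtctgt
Cxcl1, chr5:90890995-90891294, plus strand: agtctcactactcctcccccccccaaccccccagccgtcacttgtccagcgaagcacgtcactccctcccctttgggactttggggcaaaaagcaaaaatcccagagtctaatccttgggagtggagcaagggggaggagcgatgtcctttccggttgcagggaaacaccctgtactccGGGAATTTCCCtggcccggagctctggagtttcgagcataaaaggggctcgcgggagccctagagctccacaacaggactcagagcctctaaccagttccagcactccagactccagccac
Ier3, chr17:35821463-35821762, plus strand: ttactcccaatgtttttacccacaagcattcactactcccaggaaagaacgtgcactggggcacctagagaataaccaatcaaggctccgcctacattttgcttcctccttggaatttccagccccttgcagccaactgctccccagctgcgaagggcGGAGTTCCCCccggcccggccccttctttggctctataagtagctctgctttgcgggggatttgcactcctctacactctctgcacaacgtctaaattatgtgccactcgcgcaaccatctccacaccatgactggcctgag
Fosb, chr7:19309996-19310295, minus strand: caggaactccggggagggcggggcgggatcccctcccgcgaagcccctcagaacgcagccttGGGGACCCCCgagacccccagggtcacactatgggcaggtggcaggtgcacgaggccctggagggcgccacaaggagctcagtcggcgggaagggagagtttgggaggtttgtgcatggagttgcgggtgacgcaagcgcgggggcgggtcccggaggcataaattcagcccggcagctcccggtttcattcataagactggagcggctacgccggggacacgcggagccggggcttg
Btg2, chr1:134079106-134079405, minus strand: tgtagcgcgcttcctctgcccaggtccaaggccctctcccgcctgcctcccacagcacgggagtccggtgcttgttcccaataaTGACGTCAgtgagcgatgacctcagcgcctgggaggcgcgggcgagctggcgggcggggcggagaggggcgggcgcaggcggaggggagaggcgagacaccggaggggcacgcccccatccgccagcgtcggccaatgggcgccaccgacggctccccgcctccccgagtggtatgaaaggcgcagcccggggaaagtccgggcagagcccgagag
Nfkbia and Ier3 hold 1 kB match each, and the 11 capital letters of Cxcl1 are 2 overlapping kB matches. Tnfaip3 has 2 kB matches and 1 to AP-1, which do not overlap. Fosb also holds a kB match, and Btg2 has 1 CRE match. Among all 27025 promoters of the same length in the table, 4.35% hold the kB consensus, 1.57% the CArG box, 7.93% TGANTCA and 1.88% TGACGTCA. A kB match was held by 5 of the 21 lower first-wave genes with a promoter in the table (of 25). Among the lower genes, the windows searched for Tnf, Clec4e, Gadd45b, Nfkbid, Pim1, Mir155hg and Il1b hold none of the 4 motifs. Only the first listed window of each gene was searched. Nfkbid has 3 windows, and Pim1 and Tnfaip3 have 2 each, so their other windows were not searched. Of the other 118 first-wave genes only 56 matched a promoter, so a comparison of shares between the groups is void.

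**Figure D2:**
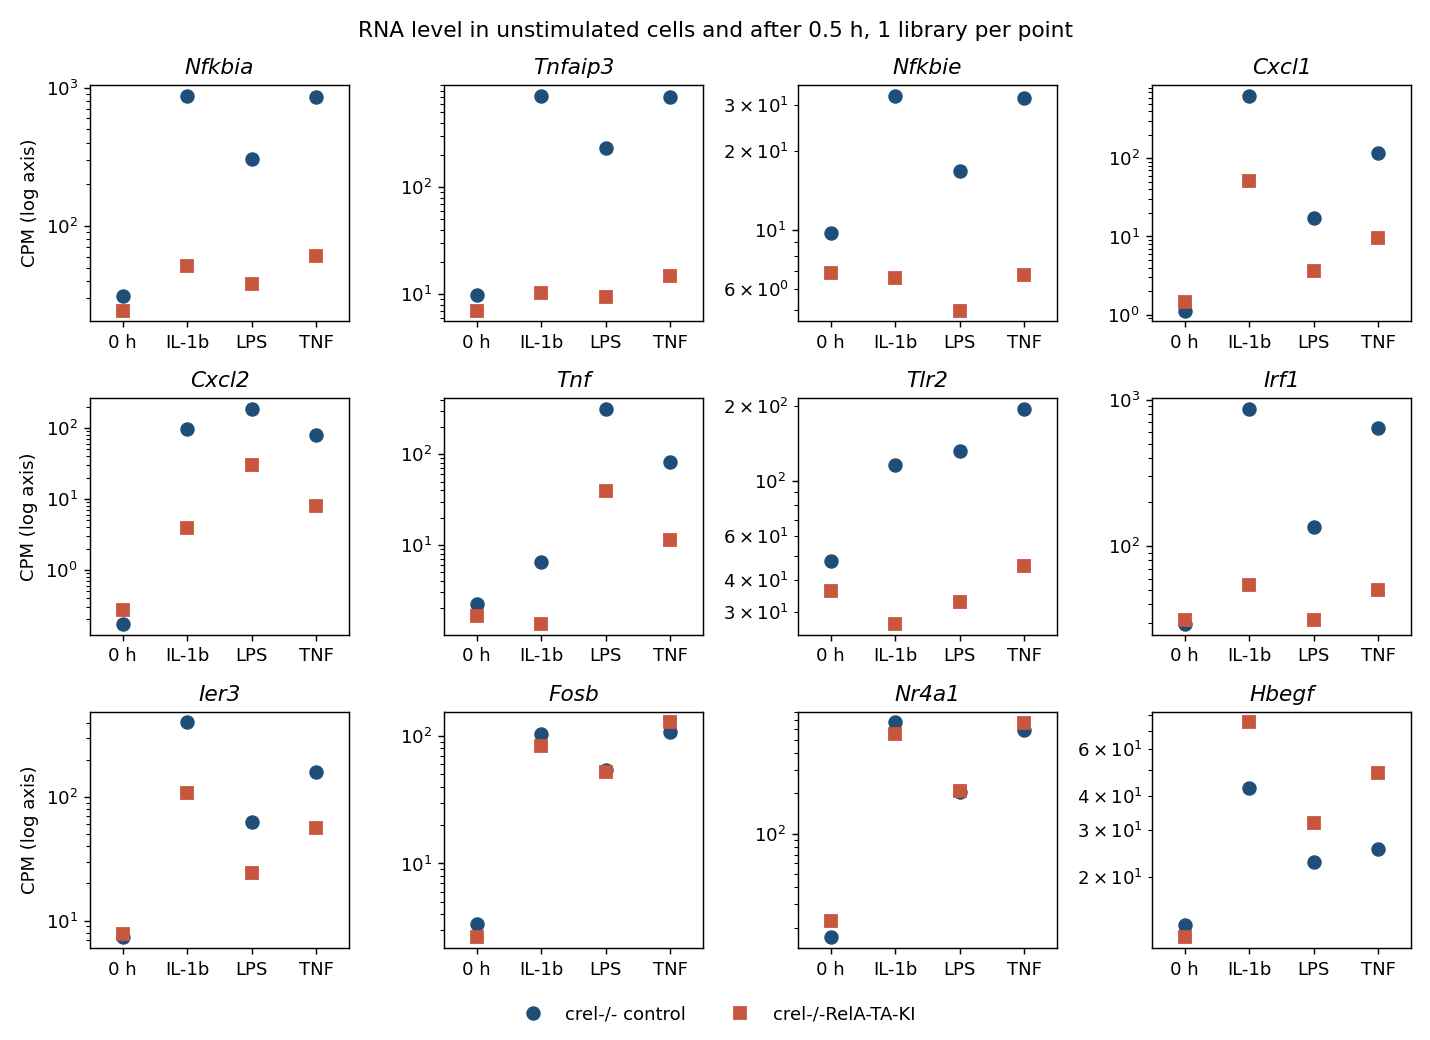
Level of 12 genes in CPM (log axis, own scale per gene) in unstimulated cells and after 0.5 h of IL-1b, LPS or TNF, 1 point per library, blue circles for control and red squares for knock-in. Nfkbia reached 877 CPM in control and at most 60.7 CPM in knock-in cells, while Fosb and Nr4a1 overlap between genotypes and Hbegf is higher in the knock-in under each agent.

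Of 15 inhibitors and feedback regulators of NF-kB, 5 were lower (Tnfaip3, Nfkbie, Nfkbid, Bcl3, Zc3h12a), Trib1 was higher and 9 did not pass, with a median of -0.53 beside 0.0039 for all genes. Over all genes tested, 2.94% were lower and 2.81% higher, the shares to set beside the count of each list below. Nfkbid, which encodes the nuclear inhibitor IkBNS, was at 6.68, 23.5 and 14.4 CPM in control and 1.33, 8.46 and 6.23 CPM in knock-in cells (-1.49, SE 0.17, adjusted p = 0.00031). The knock-in library was lower under each agent, while groups overlapped across agents. Bcl3, another nuclear member of the family, went from 7.25 to 38.5, 12.6 and 36.2 CPM in control cells and reached 10.9, 7.64 and 11.7 CPM in the knock-in (-1.48, SE 0.19, adjusted p = 0.0068, but 0.092 without the TNF pair). Zc3h12a, an RNase that degrades cytokine mRNAs, showed a smaller gap (-0.53, SE 0.09, adjusted p = 0.0049, but 0.051 without the LPS pair) and kept 56.5% to 68.7% of its increase. Nfkbiz, which encodes a nuclear IkB protein, was at 587, 261 and 141 CPM against 185, 164 and 62.4 CPM and did not pass (-1.18, SE 0.28, adjusted p = 0.25, and 0.0049 without the LPS pair). Trib1, a pseudokinase that directs proteins to degradation, went the other way, at 47.4, 35.7 and 55.8 CPM in control and 82.0, 50.1 and 85.0 CPM in knock-in cells (0.63, SE 0.07, adjusted p = 0.0002). It was higher in the knock-in under each agent.

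Among 24 subunits of NF-kB and upstream signalling genes, 3 were lower, none was higher and the median was -0.15. Birc3, an inhibitor of apoptosis in the TNF receptor complex, was at 39.8, 29.7 and 36.5 CPM in control and 20.4, 20.4 and 23.2 CPM in knock-in cells (-0.72, SE 0.09, adjusted p = 0.00075). The groups did not overlap. Relb, an NF-kB subunit, was lower (-0.85, SE 0.16, adjusted p = 0.044, but 0.25 without the TNF pair). Traf1, a receptor adaptor, was at 1.38, 3.29 and 2.22 CPM against 0.381, 1.75 and 0.632 CPM (-1.35, SE 0.33, adjusted p = 0.035). This call was lost without the IL-1b, the LPS or the TNF pair (adjusted p = 0.094, 0.093 and 0.12). Nfkb1 and Nfkb2, which encode subunit precursors, had differences of -0.05 and -0.18 and did not pass (adjusted p = 0.71 and 0.15).

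**Figure D3:**
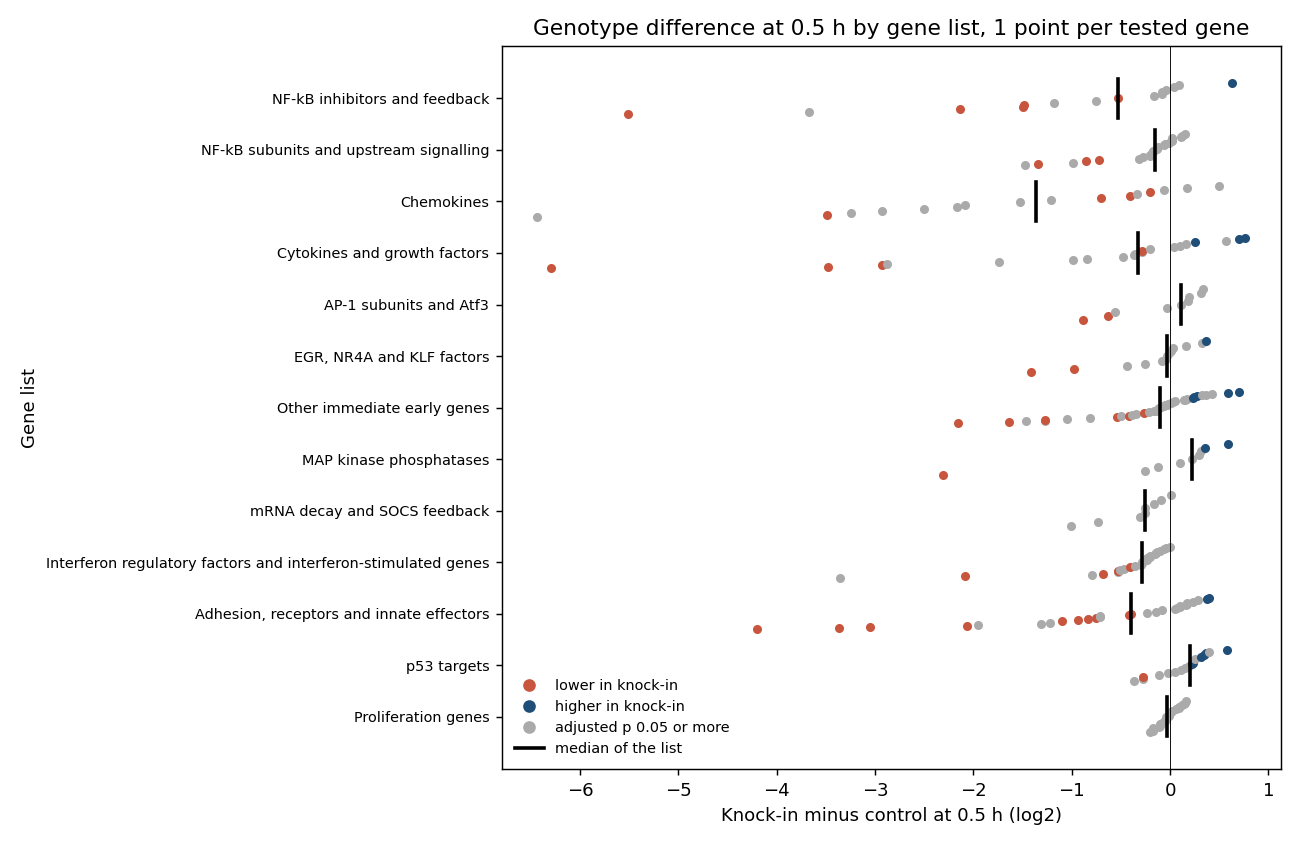
Genotype difference at 0.5 h (knock-in minus control, log2) for every tested gene of 13 pathway lists, with red for lower, blue for higher and grey for an adjusted p of 0.05 or more, and a black bar at the median of each list. The chemokine list has the lowest median, -1.37, and p53 targets and MAP kinase phosphatases have medians of 0.21 and 0.23.

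Chemokines, which recruit leukocytes, had the lowest median of these lists, -1.37, with 4 of 16 tested members lower and none higher. Cxcl1 (ENSMUSG00000029380.11, chr5:90891241-90893115), a neutrophil attractant, went from 1.1 to 634, 17.1 and 117 CPM in control cells and from 1.46 to 51.9, 3.61 and 9.57 CPM in the knock-in. Each knock-in library was below the control library of its agent, although knock-in cells under IL-1b stood above control cells under LPS. Cxcl1 was lower in the fit (-3.49, SE 0.22, adjusted p = 0.012), a call lost without the IL-1b pair (0.061) or the TNF pair (0.14). Cxcl2, also a neutrophil attractant, was at 97.5, 185 and 78.5 CPM against 3.90, 29.6 and 8.04 CPM, with the groups apart, and did not pass (-3.24, SE 0.45, adjusted p = 0.13, and 0.039 without the LPS pair).

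Ccl2 and Ccl7, monocyte attractants, differed in the gap from agent to agent. Ccl2 stood at 313, 25.8 and 218 CPM in control and 29.1, 25.7 and 25.5 CPM in knock-in cells, with pair differences of -3.41, -0.0037 and -3.09 under IL-1b, LPS and TNF. The LPS libraries of both genotypes lay close together, and the common difference did not pass (-2.50, SE 0.95, adjusted p = 0.42, and 1.1e-08 without the LPS pair). Ccl7 had pair differences of -2.52, -0.12 and -2.59. Ccl20, which attracts CCR6-bearing cells, reached 51.6 and 26.4 CPM under IL-1b and TNF in control cells and at most 0.451 CPM in a stimulated knock-in library (adjusted p = 0.11). Cxcl10, an interferon-inducible chemokine, was at 112, 39.9 and 76.3 CPM in control and 5.71, 14.8 and 8.31 CPM in knock-in cells, which stood at 10.6 CPM at 0 h (adjusted p = 0.27). The remaining lower calls were smaller, Cx3cl1 at -0.70 (adjusted p = 0.027), Ccl9 at -0.41 (0.028) and Cxcl12 at -0.20 (0.017). They were lost without the TNF pair for Cx3cl1 (0.17) and Ccl9 (0.059), without the IL-1b pair for Cx3cl1 (0.07) and Cxcl12 (0.24), and without the LPS pair for Ccl9 (0.061) and Cxcl12 (0.19).

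Ccl3 and Ccl4, macrophage inflammatory proteins, were not called lower. Ccl3 went from 12.0 to 108 and 72.8 CPM under LPS and TNF in control cells and from 13.3 to 109 and 99.0 CPM in the knock-in, and stayed at 11.4 and 9.90 CPM under IL-1b. The genotype difference did not pass (0.17, SE 0.11, adjusted p = 0.51). Ccl4 was at 80.2 and 54.4 CPM in control and 105 and 91.4 CPM in knock-in cells under LPS and TNF (0.49, SE 0.12, adjusted p = 0.062, and 0.0018 without the IL-1b pair).

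Cytokines and growth factors were split, with 4 of 20 tested members lower, 3 higher and a median of -0.32. Tnf (ENSMUSG00000024401.12, chr17:35199381-35202007), the gene of one of the agents, was at 6.46, 317 and 82.3 CPM in control and 1.33, 39.5 and 11.2 CPM in knock-in cells. It was lower in 3 of 3 pairs (-2.93, SE 0.08, adjusted p = 1.9e-09), and 12.0% and 11.9% of the increase was left under LPS and TNF. Il1b had 1 count in each genotype under IL-1b, but under LPS and TNF stood at 32.3 and 38.4 CPM in control and 2.37 and 3.79 CPM in knock-in cells (-3.48, SE 0.18, adjusted p = 8.1e-07). Il1a, the other IL-1 gene, had 31 counts over the 3 stimulated control libraries and 0 over the 3 knock-in libraries, at least 9.98-fold lower against 3 counts summed over the group and at least 7.64-fold by the exact 95% counting interval (adjusted p = 0.01). It passed the count filter only through control libraries, under LPS and TNF, so this p-value carries that choice. Lif, a cytokine of the IL-6 family, was at 67.2, 4.55 and 30.9 CPM against 13.7, 3.72 and 10.6 CPM and did not pass (-1.74, SE 0.37, adjusted p = 0.14, and 0.0011 without the LPS pair). Hbegf, an EGF receptor ligand, was at 43.0, 22.8 and 25.4 CPM in control and 75.3, 31.7 and 48.9 CPM in knock-in cells, higher in each pair (0.76, SE 0.09, adjusted p = 0.0004). Inhba, which encodes an activin subunit, was also higher (0.70, SE 0.09, adjusted p = 0.00082).

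Genes of adhesion, receptors and innate effectors had 10 of 29 tested members lower and 2 higher, with a median of -0.40. Among all genes 2.94% were lower and 2.81% higher. Tlr2 (ENSMUSG00000027995.10, chr3:83836272-83841767), a receptor for bacterial lipoproteins, went from 47.8 to 116, 131 and 194 CPM in control cells and from 36.4 to 26.8, 32.7 and 45.5 CPM in the knock-in. The groups did not overlap, and the pair differences were close, at -2.10, -2.0 and -2.09 (-2.07, SE 0.05, adjusted p = 1.5e-09). Sele, the E-selectin that tethers leukocytes, reached 21.6 and 13.4 CPM under IL-1b and TNF in control cells and 1.05 and 0.722 CPM in the knock-in, with 1 count in each genotype under LPS (-4.20, SE 0.27, adjusted p = 5.8e-06). Sele could not have passed the count filter without control libraries, so its p-value carries that choice. Icam1, a leukocyte ligand, was at 188, 69.0 and 157 CPM against 34.8, 28.8 and 38.7 CPM, the groups apart, and did not pass (-1.95, SE 0.30, adjusted p = 0.14, and 9.2e-06 without the LPS pair). Vcam1, another leukocyte ligand, was at 600, 131 and 347 CPM against 136, 110 and 130 CPM and did not pass (-1.31, SE 0.53, adjusted p = 0.44).

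Of 25 interferon regulatory and interferon-stimulated genes, 4 were lower and none higher, with a median of -0.28. Irf1, a transcription factor that NF-kB switches on early, was at 864, 134 and 639 CPM in control against 54.5, 31.5 and 50.2 CPM in knock-in cells, from 29.4 and 31.4 CPM at 0 h. The groups did not overlap, with pair differences of -3.98, -2.09 and -3.66, but the common difference did not pass (-3.36, SE 0.56, adjusted p = 0.17, and 3.8e-09 without the LPS pair). The guanylate-binding protein genes Gbp5 (-2.09, adjusted p = 0.003), Gbp3 (-0.69, 0.01) and Gbp2 (-0.40, 0.014) and the ubiquitin-like Isg15 (-0.53, 0.038) were lower. Isg15 was lost without the TNF pair (0.23) and Gbp2 without the IL-1b pair (0.12) or the LPS pair (0.078).

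Several immediate early genes passed in neither direction. Fosb, a partner of Jun in AP-1, went from 3.37 to 103, 53.7 and 108 CPM in control and from 2.64 to 82.6, 52.0 and 128 CPM in knock-in cells. The groups overlapped (-0.03, SE 0.11, adjusted p = 0.94). Egr1, a zinc finger factor, was at 1328, 705 and 1110 CPM against 1076, 767 and 1245 CPM (-0.0064, SE 0.10, adjusted p = 0.98). Nr4a1, an orphan nuclear receptor, was at 675, 204 and 591 CPM against 552, 208 and 668 CPM (-0.03, SE 0.09, adjusted p = 0.93), and Btg2, an antiproliferative factor, at 1060, 294 and 669 CPM against 801, 321 and 643 CPM (-0.12, SE 0.11, adjusted p = 0.69). All 4 were lowest under LPS in both genotypes. Fos, the partner of Jun, and Dusp1, a MAP kinase phosphatase, stood at 0.33 (adjusted p = 0.56) and 0.29 (0.74). Both were called higher without the IL-1b pair (0.0035 and 1.1e-05). A p over the threshold does not show that levels were the same.

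Within these families some members did differ. Of 9 AP-1 genes, 2 were lower and none higher, with a median of 0.11. Junb was at 593, 307 and 555 CPM in control and 340, 230 and 353 CPM in knock-in cells (-0.63, SE 0.07, adjusted p = 0.0011, but 0.14 without the TNF pair). Maff, a small Maf factor, was at 63.5, 21.7 and 58.3 CPM against 29.1, 13.6 and 33.9 CPM (-0.88, SE 0.09, adjusted p = 0.0002). Both were lower in each pair, with overlap across agents. Of 13 EGR, NR4A and KLF genes, with a median of -0.03, Egr4 and Klf10 were lower and Klf4 was higher (0.37, SE 0.05, adjusted p = 0.0012). Egr4, a zinc finger factor, was at 21.3, 2.32 and 13.6 CPM in control and 4.95, 1.45 and 7.04 CPM in knock-in cells (-1.41, SE 0.25, adjusted p = 0.017). Klf10, a TGF-beta-inducible repressor, was lower too (-0.97, SE 0.11, adjusted p = 0.0036, but 0.083 without the TNF pair).

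Of 38 other immediate early genes, 6 were lower, 5 were higher and the median was -0.10. Ier3, a stress-induced survival factor, went from 7.34 to 402, 62.6 and 158 CPM in control and from 7.74 to 107, 24.5 and 55.9 CPM in knock-in cells, where 25.2% to 31.9% of the increase was kept (-1.63, SE 0.11, adjusted p = 0.0015). The knock-in library was lower under each agent. Gadd45b, which restrains JNK signalling, was at 202, 60.2 and 176 CPM against 37.4, 18.8 and 38.5 CPM (-2.16, SE 0.14, adjusted p = 0.003, but 0.094 without the TNF pair). Here the groups did not overlap. Pim1, a survival kinase, was lower (-1.27, SE 0.09, adjusted p = 3.3e-05), as was Cebpb, a factor of acute phase genes (-0.54, SE 0.06, adjusted p = 0.00024). Csrnp1, a nuclear protein, narrowly missed the threshold (-1.46, SE 0.19, adjusted p = 0.051). Plk3, a stress kinase, was higher (0.59, SE 0.12, adjusted p = 0.014, but 0.14 without the LPS pair).

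Rgs1, a brake on G protein signalling, had the largest difference above 0 among the 143 genes. It stood at 3.29, 23.4 and 11.7 CPM in control and 5.14, 63.3 and 34.0 CPM in knock-in cells (1.38, SE 0.13, adjusted p = 0.00014). It started at 2.68 and 2.73 CPM at 0 h, and the test of the 0.5 h against the 0 h difference did not pass (adjusted p = 0.86). Tcim, a positive regulator of Wnt signalling, was higher (0.79, SE 0.18, adjusted p = 0.028), a call lost without the IL-1b pair (0.22) or the LPS pair (0.20). 1700016P03Rik (0.91), Svop (0.81) and Osm (0.60) also had differences above 0 and did not pass. Of 18 p53 targets, 7 were higher and 1 was lower, with a median of 0.21, against 2.81% higher and 2.94% lower among all genes. Mdm2, which marks p53 for degradation, was higher by 0.36 (SE 0.05, adjusted p = 0.00095), and Eda2r, a TNF receptor family member, by 0.58 (SE 0.06, adjusted p = 0.00014) after 0.53 at 0 h. Of 9 MAP kinase phosphatases, Dusp4 (0.59) and Dusp6 (0.36) were higher and Dusp2 was lower (-2.31, SE 0.30, adjusted p = 0.0035). Dusp4 was lost without the IL-1b or the TNF pair (adjusted p = 0.17 and 0.13) and Dusp6 without the LPS or the TNF pair (0.15 and 0.063). Of 8 mRNA decay and SOCS genes none passed by edgeR, with Zfp36, which destabilises cytokine mRNAs, at -1.01 (adjusted p = 0.52). Of 24 proliferation genes none passed, with a median of -0.03.

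Under a single agent there is 1 pair of libraries and no test. The knock-in was lower by at least 1 on the log2 scale for 25, 17 and 20 first-wave genes in the IL-1b, LPS and TNF pair, while 1.9%, 1.48% and 1.5% of all genes were. It was higher by as much for 1, 2 and 5 first-wave genes, against 0.996%, 0.76% and 0.907% of all genes. The median difference of the 143 genes was -0.23, -0.08 and 0.14 under IL-1b, LPS and TNF, with 97, 80 and 60 genes below 0, so that the TNF median lay above 0. Lower by 1 in all 3 pairs were 10 genes, namely Cxcl1, Tnf, Clec4e, Ccrl2, Gadd45b, Ier3, Nfkbid, Penk, Mir155hg and E230013L22Rik. Not all of these rose by 1 under every agent: Tnf, Clec4e and Ccrl2 did not under IL-1b, nor Gadd45b under LPS, nor Penk and Mir155hg under TNF. A further 10 were lower in 2 pairs and 12 in 1 pair. Among all 13560 genes, 47 were lower by 1 in 3 pairs, 115 in 2 and 291 in 1. Of the genes lower in 2 pairs, 7 were so under IL-1b and TNF, among them Bcl3, Cxcl5 and Csrnp1, and of those lower in 1 pair, 7 belonged to IL-1b, 4 to LPS and 1 to TNF. Across the 143 genes the pair differences correlated with a Spearman rho of 0.50 for IL-1b and LPS, 0.62 for IL-1b and TNF and 0.59 for LPS and TNF, a description across genes, which are not replicates. The share of the control increase that the knock-in kept, over first-wave genes with an increase of at least 10 CPM in control cells, had a median of 71.1% under IL-1b (65 genes), 88.3% under LPS (60 genes) and 90.7% under TNF (66 genes). Choosing genes by their control increase can itself lower this share, so the medians do not measure a loss in the knock-in.

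**Figure D4:**
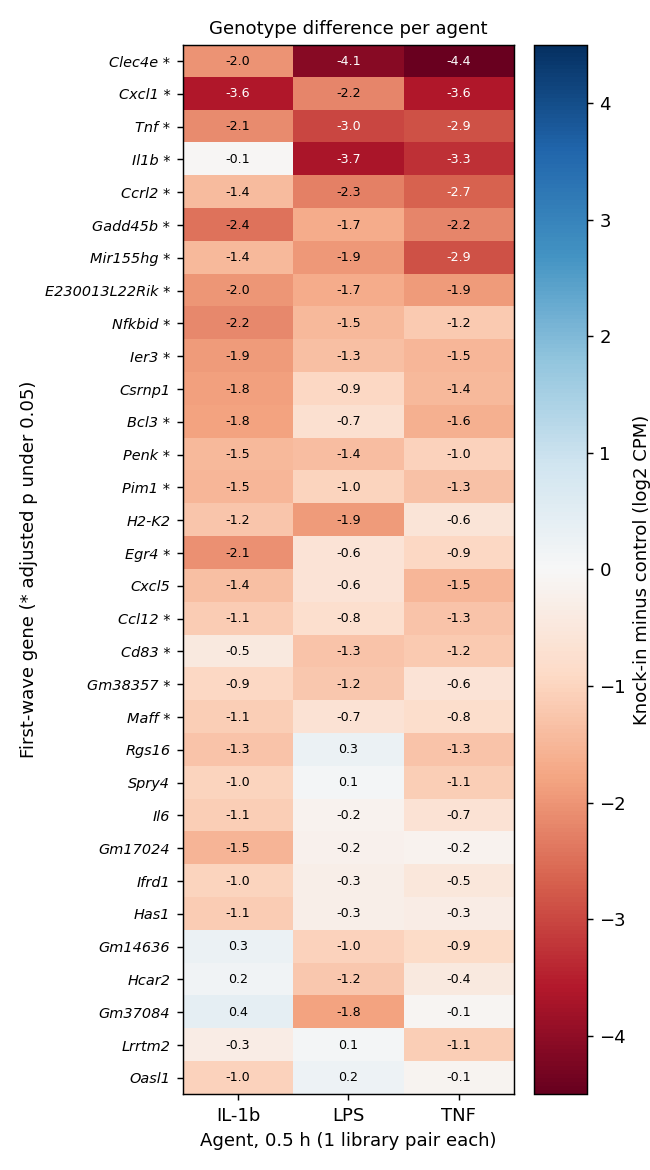
Genotype difference (knock-in minus control, log2 CPM) under each agent at 0.5 h, 1 pair of libraries per column, for the 32 first-wave genes lower by at least 1 in any pair, with red for lower, blue for higher and an asterisk for an adjusted p under 0.05 over 3 pairs. Cxcl1 was lower under each agent, at -3.61, -2.19 and -3.59, while Il1b had -0.05, -3.66 and -3.28.

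A group of 15 first-wave genes rose by 1 under LPS and TNF and not under IL-1b, among them Tnf, Il1b, Clec4e, Ccrl2, Cd83, Ccl3, Ccl4, Osm and Rgs1. Of these 15, 7 were lower and 1 was higher in the knock-in, with a median of -0.66. Among all genes tested, 2.94% were lower and 2.81% higher, which holds beside the macrophage markers below too. Clec4e, a lectin receptor of myeloid cells, was at 0.954, 22.7 and 17.6 CPM in control and 0.0952, 1.14 and 0.632 CPM in knock-in cells (-4.45, SE 0.23, adjusted p = 8.1e-07). Clec4e could not have passed the count filter without control libraries, so its p-value carries that choice. Ccrl2, an atypical chemoattractant receptor, was at 2.86, 38.4 and 43.7 CPM against 0.952, 7.84 and 6.77 CPM (-2.43, SE 0.15, adjusted p = 4.1e-06). Cd83, a marker of activated antigen-presenting cells, was at 18.4, 148 and 247 CPM against 13.4, 61.0 and 110 CPM (-1.10, SE 0.14, adjusted p = 0.023, but 0.069 and 0.18 without the LPS and the TNF pair). For all 3 the knock-in library was lower under each agent. Of the 16 macrophage markers, none at 0, Lyz2 (-0.52, SE 0.05, adjusted p = 8e-05) and Cd14 (-0.42, SE 0.06, adjusted p = 0.0019) were lower and none was higher, with a median of -0.13, both named for this count. Lyz2 stood at -0.56 already at 0 h. The part of macrophage RNA in the lower levels of these genes was not tested.

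At 0 h fewer genes were called than at 0.5 h, with 30 lower (0.221%) and 88 higher (0.649%). The 0 h difference rests on 1 pair and that at 0.5 h on more pairs. Few calls at 0 h, over all genes or in the first wave, therefore do not show that the genotypes differed less before stimulation. With the IL-1b, LPS and TNF pair in turn left out of the fit the 0 h calls numbered 43, 11 and 139 lower and 93, 32 and 266 higher. Of the 25 lower first-wave genes, 1 was called at 0 h, Penk, which encodes proenkephalin (-1.08, SE 0.15, adjusted p = 0.034), and the median difference of the 25 was 0.06 at 0 h and -1.30 at 0.5 h. The 25 were chosen by their call at 0.5 h, which sets the sign of the median at that time. The medians are therefore no test of a change after stimulation. The difference at 0.5 h was also tested against that at 0 h, where there is 1 pair. It was more negative for 4 genes (0.0295%) and more positive for 0 (0%) by edgeR, with 774 genes at an unadjusted p under 0.05, and for 10 and 0 by DESeq2. The 4 genes were Tlr2 (-1.68, SE 0.11, adjusted p = 9.1e-05), Cebpb (-1.05, adjusted p = 0.021), Slfn2 (-0.91, adjusted p = 0.021) and Gm27483 (-2.30, adjusted p = 0.0096), the last of them named for this count together with Slfn2. Without the IL-1b, LPS and TNF pair in turn the more negative calls numbered 19, 26 and 160.

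Outside the first wave, 373 genes were lower and 370 higher. Of these 743 genes, 657 had the same sign at 0 h, and for 482 the 0 h difference was at least 50% of that at 0.5 h. The same shares over all genes are not given, so these counts have no background to be read against. Wdfy1, an adaptor of Toll-like receptor signalling, was at 11.9 CPM in control and 83.9 CPM in knock-in cells at 0 h, and at 17.2, 18.5 and 12.5 against 85.3, 79.6 and 85.7 CPM at 0.5 h (2.40, SE 0.12, adjusted p = 9.4e-05). C3, the central complement component, was at 12.9 against 3.19 CPM at 0 h and at 19.9, 25 and 14.5 against 2.0, 2.27 and 1.44 CPM at 0.5 h (-3.37, SE 0.15, adjusted p = 2.3e-07). Both differed at either time, without overlap. Gpr84, a receptor for medium-chain fatty acids, was at 0.530, 7.36 and 8.48 CPM in control and 0.190, 0.206 and 0.542 CPM in knock-in cells (-4.04, SE 0.38, adjusted p = 0.00014), and Cd69, an early activation antigen, at 0.742, 4.75 and 6.5 against 0, 0.516 and 0.271 CPM (-3.91, SE 0.40, adjusted p = 0.00018). Both passed the count filter only through the control LPS and TNF libraries, where they are high, so their p-values carry that choice. Cd300e and BC002163 were higher, with 58 and 88 counts over the 3 knock-in libraries against 2 each in control, ratios of 30.0 (95% counting interval 7.95 to 254) and 45.6 (12.2 to 382). Neither could have passed the count filter without knock-in libraries. With Il1a, Tnfaip3, C3, Gpr84 and Cd69, the genes Car3, Ncan, Mlc1, Capn11 and Kcnf1 made up the 10 with the lowest differences among genes outside the wave that were called lower with the same sign in 3 of 3 pairs. Sele and Acod1 (-3.06, adjusted p = 0.023) were called lower with a wider gap than some of these, but were not lower in the LPS pair (Sele) or the IL-1b pair (Acod1). Gm10093, Ptprb, Fam83f, Gdf3, Gpr149, Klk8 and Fmo2 were among the 10 with the highest differences by the same rule. Calls were lost for Capn11, Gpr149, Klk8 and Fmo2 without the LPS pair (adjusted p = 0.098, 0.12, 0.10 and 0.10) and for Fam83f and Gpr149 without the IL-1b pair (0.058 and 0.075). Of 187 genes tested within 5 Mb of Rela on chromosome 19, 6 were called (3.21%, against 5.74% of all genes).

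The later libraries show how the early differences went on, in a fit over all 20 libraries with a genotype term at each time. That fit called 185 genes lower and 176 higher at 0.5 h. For the difference at 1 h against that at 0.5 h, 0 genes were lower (0%) and 0 higher by edgeR, with 437 at an unadjusted p under 0.05, and 9 lower and 0 higher by DESeq2. From 0.5 to 3 h the difference moved up for 236 genes (1.68%) and down for 247 (1.76%), and without the IL-1b, LPS and TNF pair at 0.5 h in turn for 63, 59 and 100 genes up and 90, 77 and 109 down. Tnfaip3 went from -5.47 at 0.5 h to -4.28 at 1 h and -2.87 at 3 h, a change of 2.61 (SE 0.35, adjusted p = 0.012). Nfkbia went from -3.66 to -3.0 and -1.96, a change of 1.70 (SE 0.32, adjusted p = 0.04). Both gaps were narrower at 3 h, with the knock-in still below control. Klf10 and Egr4 stood at 0.48 and 2.99 at 3 h. Birc3 went from -0.72 to -1.80 and -1.46, and Cx3cl1, a membrane-bound chemokine, from -0.70 to -1.97 and -2.66, so that their gap was wider at 3 h.

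**Figure D5:**
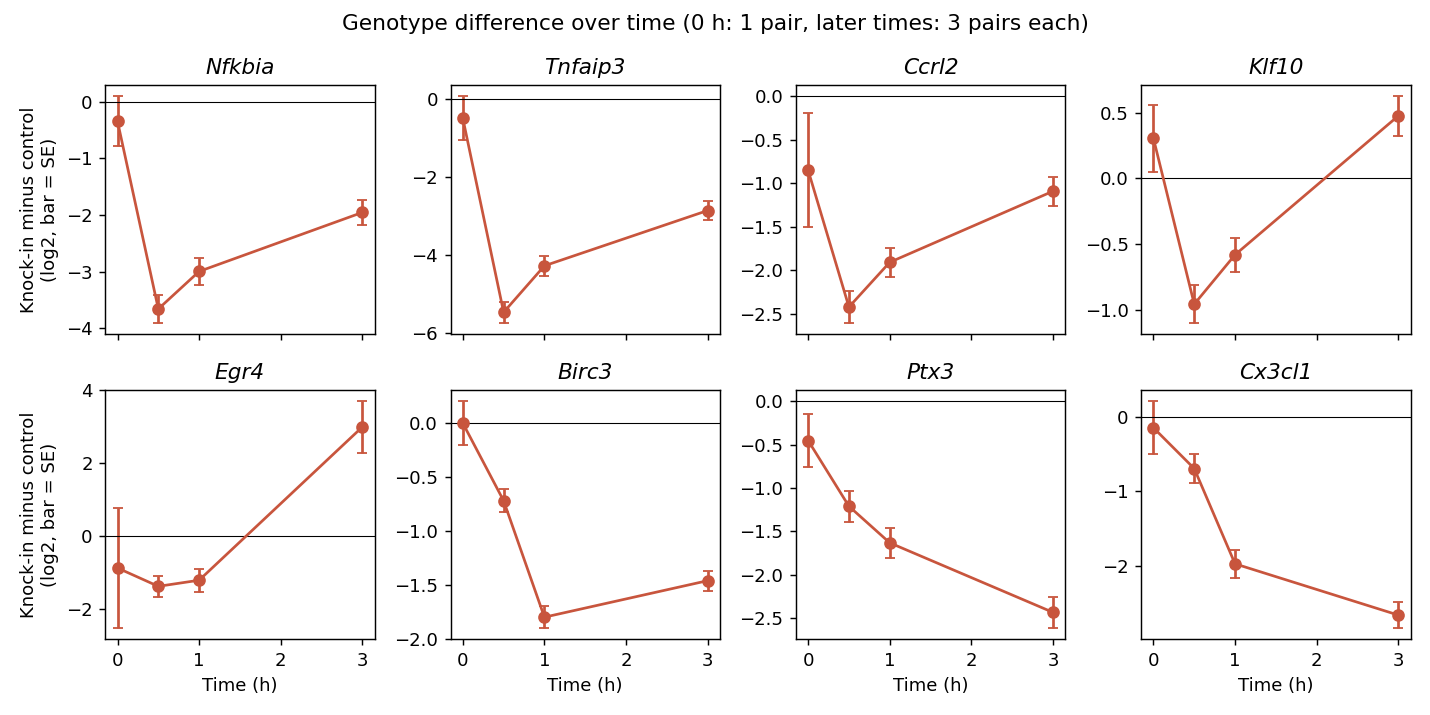
Genotype difference (knock-in minus control, log2, bars are SE) at 0, 0.5, 1 and 3 h in the fit over 20 libraries for 8 genes, with 1 pair at 0 h and 3 pairs at each later time, lines joining times. The gap of Nfkbia and Tnfaip3 is widest at 0.5 h, while Birc3, Ptx3 and Cx3cl1 lie lower at 3 h than at 0.5 h.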

How the data were processed

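RNA was measured by polyA-selected sequencing in 20 libraries, 1 per genotype, agent and time. The deposited table holds raw counts per gene. Per the submitters' processing notes, cutadapt 1.12, STAR, featureCounts 1.5.1 and DESeq2 were used with genome build mm10, with no roles or settings given. Of 45706 genes, 45143 (98.8%) matched a symbol.

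The filter on low counts asked for 1 CPM or more in 2 or more libraries. The 8 libraries at 0 and 0.5 h were fitted with edgeR 4.0.16 (R 4.3.3; TMM scaling, robust quasi-likelihood F test) with a term per agent and a genotype term per time, which leaves 2 residual degrees of freedom. A further fit used all 20 libraries. The SE is the log2 difference divided by the square root of F, so it also draws on the spread of other genes. A single pair has no test: its difference is of log2 CPM values (prior count 2). Counting intervals are exact, at 95%, and cover counting error only. Promoter sequences are from RefSeq, with 1 window per gene, the first listed. The members and gene lists were chosen with earlier results of these data known.

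Named genes are, among genes with an adjusted p under 0.05 and the same sign in 3 of 3 pairs, the 15 first-wave genes with the lowest differences and the 10 with the largest of each sign outside the wave. The others are the 8 first-wave genes with the highest differences, passing or not, list members used as examples, Rela, Rel, and 2 genes on each side of the fold limit. Alternatives were DESeq2 1.42.0 (test and size factors), limma-voom (limma 3.58.1), no count filter, no agent block, other library sets and each pair left out. The code was tested on simulated data.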

Additional observations from a re-analysis of the deposited data

Results flagged for a closer look

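The genotype difference at 0.5 h was tested against that at 0 h, and 4 genes passed: Tlr2 at -1.68, Cebpb at -1.05, Slfn2 at -0.91 and Gm27483 at -2.30 on the log2 scale, all lower after stimulation relative to the start. Gm27483 was higher in the knock-in at 0 h (1.74). The 0 h difference rests on 1 pair.

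The difference at 3 h was tested against that at 0.5 h and was higher for 236 genes and lower for 247. The gap moved up for the inhibitors Tnfaip3 (2.61) and Nfkbia (1.70), for Ccrl2 (1.33), Klf10 (1.43) and Egr4 (4.37), and for the receptor kinase gene Epha2 (0.92). It moved down for Birc3 (-0.74), Cx3cl1 (-1.96), the pattern recognition molecule Ptx3 (-1.22) and complement C3 (-2.73). Their adjusted p lay between 0.0085 and 0.043 (edgeR, 20 libraries).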

How the results depend on the processing

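Counts of genes higher and lower, in that order, are given with each change of processing. The reported counts were 381 and 398 for the genotypes at 0.5 h, 88 and 30 at 0 h, 0 and 4 for 0.5 h against 0 h, 569 and 316 for the control response and 336 and 270 for the knock-in response, and 143 first-wave genes, 25 lower and 11 higher. With DESeq2 they were 95 and 138 for the genotypes at 0.5 h, 19 and 3 at 0 h, 0 and 10 for 0.5 h against 0 h, 238 and 20 for the control response and 148 and 37 for the knock-in response, and 116 first-wave genes, 27 lower and 5 higher. Without robust estimation of the spread, chosen after seeing the data, they were 339 and 386 for the genotypes at 0.5 h, 33 and 16 at 0 h, 0 and 7 for 0.5 h against 0 h, 552 and 243 for the control response and 302 and 209 for the knock-in response, and 166 first-wave genes, 45 lower and 11 higher. With no filter on low counts they were 599 and 717 for the genotypes at 0.5 h, 279 and 168 at 0 h, 18 and 107 for 0.5 h against 0 h, 897 and 670 for the control response and 588 and 655 for the knock-in response, and 162 first-wave genes, 37 lower and 19 higher. With no block for the agent, which is the unpaired fit, they were 1 and 1 for the genotypes at 0.5 h, 0 and 0 at 0 h, 0 and 0 for 0.5 h against 0 h, 1 and 0 for the control response and 1 and 0 for the knock-in response, and 2 first-wave genes, 0 lower and 0 higher. In the fit over 20 libraries they were 176 and 185 for the genotypes at 0.5 h, 8 and 0 at 0 h, 0 and 1 for 0.5 h against 0 h, 171 and 49 for the control response and 69 and 34 for the knock-in response, and 115 first-wave genes, 15 lower and 0 higher. Leaving out 1 agent pair gave ranges of 140 to 530 higher and 200 to 576 lower at 0.5 h, 32 to 266 higher and 11 to 139 lower at 0 h, 1 to 68 higher and 19 to 160 lower for 0.5 h against 0 h, 304 to 1329 higher and 76 to 1320 lower for the control response, 170 to 1095 higher and 52 to 1268 lower for the knock-in response, and 117 to 239 first-wave genes with 32 to 45 lower and 5 to 18 higher. For 3 h against 0.5 h the ranges, chosen after seeing the data, were 59 to 100 higher and 77 to 109 lower. For 1 h against 0.5 h, DESeq2 gave 9 lower and the fit with no filter 4. A rise of at least 2 left 58 first-wave genes, 13 lower and 1 higher, a rise of 1 with no p gave 245 first-wave genes, 28 lower and 11 higher, and 93 also rose under TNF. With a prior count of 5, 77, 55 and 75 genes were higher by 1 under IL-1b, LPS and TNF, and 1 and 3 first-wave genes under LPS and TNF, and with 0.5, 2 under IL-1b. Where a value did not keep within 1.5 times, the cause was not tested.

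Of 116 named genes, 74 passed at 0.5 h, and no call was reversed in any alternative run. Calls were lost for 30 with DESeq2, 34 in the fit over 20 libraries, 72 with no block, and 15, 20 and 16 without the IL-1b, LPS and TNF pair, and gained for 14, 14 and 2 without those pairs. Clec4e, Sele, Il1a, Gpr84, Cd69, Kcnf1, Ccl20 and 1700016P03Rik did not pass the count filter in at least 1 of these fits and have no value there. The labels give no replicate numbers: pairing is by agent, and the fit has 2 residual degrees of freedom, which limits precision for genes whose gap varies between agents. In simulated counts for the 0.5 h comparison over 13560 genes, 65.7% of changes of 0.5, 95.5% of 1 and 98.5% of 2 were recovered. Of 193 calls there, 20 were unchanged genes, a share above the one the adjusted p threshold allows. The recovered shares describe the simulated counts only. In the data Nfkbia (-3.68), Irf1 (-3.36), Cxcl2 (-3.24) and Ccl2 (-2.50) did not pass. The shares therefore cannot be carried over to genes whose gap varies between agents.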
